A study of Homo sapiens with 4 samples.

Results

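The genes described here encode the complement and blood clotting cascades, with their receptors and inhibitors. They are 43 genes listed by name for their roles, of which 38 were rows of the deposited tables of 19626 genes and 23 had an RPKM above 1 in at least 1 library. RPKM is a read count scaled by transcript length and by library depth, and it allows for these alone when genes or libraries are compared. All libraries came from ES-2 cells, an established line labelled as ovarian clear cell carcinoma that carries the endogenous YAP1-MAML2 (YM) fusion. Both groups received pLKO.1 lentivirus in 2 infections of 8 h, and RNA was taken 96 h after the first of them, as the sample labels have it. The study's methods give other times and numbers of infections, and the difference could not be settled. The control group (shCtl, n = 2 biological replicates) carried a non-targeting shRNA, and the depleted group (shM2-3, titled shMAML2 by the submitters, n = 2) an shRNA against MAML2 that acts on the MAML2 and the fusion transcripts alike. The groups thus differ by 1 hairpin in 1 cell line, and the effects of losing the fusion and losing MAML2 cannot be told apart. The replicates are named biological in the sample titles. The p-values below set the difference between the groups against the spread between these libraries.

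Complement is a set of plasma and membrane proteins in which serine proteases cut one another in sequence, until C3 is split and its fragment marks a surface. Cells protect themselves with membrane regulators such as CD46, CD55 and CD59. In clotting, tissue factor (F3) on cells outside the vessel starts a chain of proteases that ends in thrombin and fibrin, and serpins, TFPI and the protein C system hold it in check. Most of these proteins circulate from the liver, yet carcinoma cells can make several of them, and thrombin also signals to cells through protease-activated receptors.

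The estimated counts summed to between 20051083 and 23978660 per library. MAML2, the target, fell from an RPKM of 8.61 and 8.26 in shCtl to 3.11 and 2.998 in shM2-3. The libraries held the keratins of an epithelial line, KRT7, KRT8 and KRT18, whereas PAX8, NAPSA and EPCAM, further genes of the labelled tumour type, stayed at an RPKM under 1 in every library. KRT7 and KRT8 fell, and the markers of the tumour type, of which 7 of 8 were in the tables, summed to 637 in both shCtl libraries and to 313 and 316 in shM2-3. Since many of the genes below are liver genes, 8 hepatocyte markers were read as well. The 6 of them in the tables (ALB, APOA1, APOB, AHSG, HP and TF) summed to an RPKM of 0.00198 to 0.203 in shCtl and of 0.0296 to 0.0932 in shM2-3, so hepatocyte RNA was near 0 in both groups. Of 6 endothelial markers, CDH5 fell and PECAM1 rose, and the summed RPKM was 9.77 to 11.3 in shCtl and 5.79 to 6.35 in shM2-3. Of 7 leukocyte markers, 5 were in the tables, mostly as CD68, and their sum was 57.4 to 58.3 in shCtl and 40.0 to 41.1 in shM2-3. CD14 went the other way, from 3 and 4 counts to 42 and 37, and LYZ had 33 and 15 counts in shCtl but 100 and 5 in shM2-3. Among 5 megakaryocyte markers, 3 were in the tables, with sums of 0.622 to 0.684 and 0.0527 to 0.299. The part that these genes may have in the results was not tested. In such bulk RNA, fewer cells that express a gene and less RNA per cell cannot be told apart.

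More of the complement and coagulation genes listed here were higher than lower in YM/MAML2-depleted cells. The list was chosen with earlier results of these data known. A gene was called when edgeR's quasi-likelihood test gave a Benjamini-Hochberg adjusted p within 0.05 and the fold change reached 2. Among the 23 tested genes, 16 were called higher, against 9.24% of all 12157 genes tested. The 3 genes called lower were PROCR, F12 and TFPI, against 8.93% of all genes. On the adjusted p alone, 18 of the 23 were higher and 5 lower, where the shares of all genes were 36.3% and 36.4%. One of the 18, TFPI2, had an adjusted p above 0.05 in 10 of 12 alternatives. Of the 16 called higher, 7 (C3, CFB, CFI, SERPING1, SERPIND1, SERPINA1 and SERPINA3) entered the test only through their level in shM2-3, so they had to be higher to be tested. The other 16 tested genes had an RPKM above 1 in both groups, and 9 of these were called higher and 3 lower. Among all 11066 genes of that kind, 6.86% were called higher and 6.85% lower. The median log2 fold change of those 16 genes was 1.13, beside a median of -0.00343 for the 11066 genes. Of other genes of these pathways, listed from general knowledge, 4 complement genes and 15 genes of clotting and fibrinolysis were tested. Of these other genes, 2 were called higher and 3 lower. On the adjusted p alone, 5 of those other genes were higher and 12 lower. Their direction depended on the filter, since 9 were called higher and 4 lower when no filter on low values was used. In none of the 23 did the libraries of the groups overlap in RPKM. That share was not counted over all genes, so it cannot be said whether the trait is particular to these 23.

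**Figure D1:**
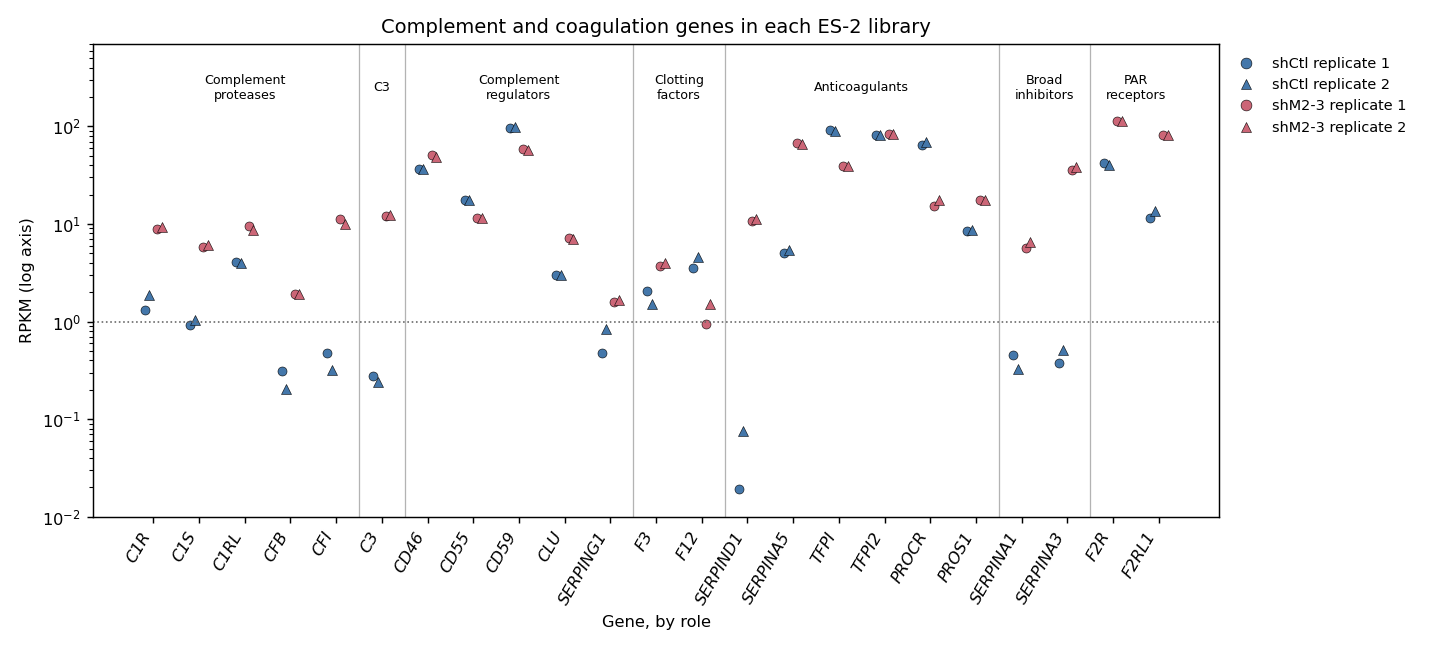
RPKM on a log axis of the 23 tested complement and coagulation genes, ordered by role, with 1 symbol per library (circles for replicate 1, triangles for replicate 2) and a dotted line at an RPKM of 1. C3, SERPIND1, SERPINA1 and SERPINA3 sat below the line in both shCtl libraries and above 5 in both shM2-3 libraries, while CD59, TFPI and PROCR were lower in shM2-3.

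Among the proteases of complement, which include activators and the inactivator CFI, C1R, C1S, C1RL, CFB and CFI were called higher. CFB and CFI were tested only because of their level in shM2-3, where 67.7% of all genes tested on that ground were called higher. The activators CFD and MASP1 stayed under an RPKM of 1, and their libraries overlapped between the groups. C1R, the protease that activates C1S within the C1 complex, had an RPKM of 1.33 and 1.88 in shCtl and of 8.99 and 9.36 in shM2-3. Its log2 fold change was 2.58 (standard error 0.143). C1S, which then cuts C4 and C2, had 0.925 and 1.03 against 5.86 and 6.09, a log2 fold change of 2.67 (standard error 0.149). Both shM2-3 libraries lay several-fold above both shCtl libraries for each of these partners. The RPKM of C1R was 1.43 and 1.83 times that of C1S in shCtl and 1.53 and 1.54 times in shM2-3, so their ratio in shM2-3 lay within its range in shCtl while both levels rose.

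C1RL, a relative of C1R, started higher and changed less, from 4.04 and 4.01 to 9.53 and 8.60 (log2 fold change 1.24, standard error 0.0883). CFB supplies the protease of the alternative pathway. It was the lowest of the called proteases in shM2-3, with an RPKM of 0.310 and 0.203 in shCtl and of 1.92 and 1.90 in shM2-3 (log2 fold change 2.95, standard error 0.325). CFI, which inactivates C3b and C4b with the help of cofactors, rose furthest of the 5, from 0.478 and 0.320 to 11.3 and 10.1. These values stand for 25 and 17 counts in control cells and 721 and 583 after depletion, and the log2 fold change of CFI reached 4.803 (standard error 0.179). The adjusted p of the 5 proteases ranged from 2.92e-11 for CFI to 2.19e-06 for CFB in edgeR's quasi-likelihood test. In the GENCODE v44 annotation of hg38, C1R and C1RL share 672 exon bases on the same strand, and 42.3% of the exon bases of CFB and 29.4% of those of CFI also belong to further annotated genes that are no rows of the tables. Reads from the exons shared by C1R and C1RL could be counted on either gene. Reads from the shared exons of CFB and CFI could come from the further genes, but could not be counted on them.

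Promoter sequences from RefSeq (GRCh38.p14, the build of the authors' alignment) are shown for genes that moved together, as the 250 bases before the transcription start. Of the 43 genes, 33 had such a sequence, among them 14 of the 19 called genes. They were searched on both strands for GGAATG (the TEAD motif), TTCNNNGAA (STAT), TTGCNNAA (C/EBP), TGANTCA (AP-1) and the IRF and NF-kB motifs. The sequences of the tested protease genes that had one follow, with every match in capitals.
C1R, chr12:7092446-7092695, minus strand: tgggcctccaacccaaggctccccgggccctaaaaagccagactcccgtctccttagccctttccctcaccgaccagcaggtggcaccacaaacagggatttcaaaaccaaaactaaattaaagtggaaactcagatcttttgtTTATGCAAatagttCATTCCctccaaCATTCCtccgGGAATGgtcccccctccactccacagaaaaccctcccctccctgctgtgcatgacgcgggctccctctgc
C1R, further start, chr12:7091894-7092143, minus strand: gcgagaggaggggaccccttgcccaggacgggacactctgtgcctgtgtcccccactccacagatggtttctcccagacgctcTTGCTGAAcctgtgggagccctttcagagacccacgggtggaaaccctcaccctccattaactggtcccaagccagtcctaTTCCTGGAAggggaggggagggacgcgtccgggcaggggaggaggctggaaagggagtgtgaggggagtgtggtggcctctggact
C1RL, chr12:7109215-7109464, minus strand: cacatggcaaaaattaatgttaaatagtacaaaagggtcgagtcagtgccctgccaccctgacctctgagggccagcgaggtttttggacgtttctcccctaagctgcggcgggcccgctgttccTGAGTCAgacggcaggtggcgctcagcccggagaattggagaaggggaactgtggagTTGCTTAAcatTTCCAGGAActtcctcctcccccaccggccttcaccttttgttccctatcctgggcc
CFB, chr6:31945845-31946094, plus strand: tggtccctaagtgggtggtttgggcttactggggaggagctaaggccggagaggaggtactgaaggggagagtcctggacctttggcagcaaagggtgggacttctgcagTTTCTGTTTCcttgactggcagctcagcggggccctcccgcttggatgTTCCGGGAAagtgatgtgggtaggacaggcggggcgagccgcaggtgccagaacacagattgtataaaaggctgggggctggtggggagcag
CFI, chr4:109802000-109802249, minus strand: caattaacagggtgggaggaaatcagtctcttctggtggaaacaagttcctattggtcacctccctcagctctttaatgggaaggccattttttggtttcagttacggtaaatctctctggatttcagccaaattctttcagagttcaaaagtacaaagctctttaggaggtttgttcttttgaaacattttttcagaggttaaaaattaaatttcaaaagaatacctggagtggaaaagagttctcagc
The first C1R window held 3 TEAD matches, which began 92, 80 and 70 bases before the start, and a C/EBP match at 106. The window of the further start had a STAT match 86 bases and a C/EBP match 167 bases before it. C1RL had an AP-1 match at 125, a C/EBP match at 68 and a STAT match at 57. CFB had an IRF match at 140 and a STAT match at 92, and CFI, the protease with the largest rise, had no match. Such a match is a run of letters and not a shown binding site.

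Over the 13 windows of the 11 genes called higher, the TEAD letters occurred in 3 (C1R, F2RL1 and SERPINA5), or 23.1%, beside 9.98% of the 13941 windows of genes tested. The STAT letters occurred in 5 (C1R, C1RL, CFB, PROS1 and SERPINA5), or 38.5%, beside 5.49%. C/EBP matches occurred in 3 windows of C1R and C1RL, beside 6.41% of the windows of genes tested. AP-1 matches occurred in 2 (C1RL and F3), beside 4.50%, and IRF matches in 1 (CFB), beside 2.45%. No window held the NF-kB motif, which 6.10% of the windows of genes tested hold. The 3 windows of the genes called lower held none of the 6 motifs. Shares of so few windows are given as a description only.

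C3, the central protein of complement, rose from 34 and 30 counts to 1798 and 1688 after depletion. This is an RPKM of 0.277 and 0.241 against 11.99 and 12.4, and a log2 fold change of 5.62 (standard error 0.113, adjusted p = 5.76e-14 in edgeR's quasi-likelihood test). Like CFB and CFI, C3 entered the test only through its level in shM2-3. C4 is encoded by the near-identical genes C4A and C4B, and its reads could be split between them. C4B had 5 and 2 counts in control cells and 58 and 44 after depletion, and C4A had 7 and 9 against 83 and 73. Both stayed under an RPKM of 1 and were not tested. From the counts, C4B was 13.2-fold higher, with an exact 95% interval of 6.18 to 33.7 that covers counting error only. C5, from which the membrane attack complex starts, differed from C3: it had 70 and 74 counts in control cells and 67 and 50 after depletion. In RPKM, which allows for library depth, C5 was at 0.502 and 0.522 in shCtl and at 0.393 and 0.324 in shM2-3. It was under the limit for testing.

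The regulators that guard the cell surface changed little. None of CD46, CD55 and CD59 reached the fold change limit, although each had an adjusted p under 0.05, from 1.06e-09 for CD59 to 2.23e-06 for CD55 in edgeR's quasi-likelihood test. CD46, a cofactor for the cleavage of C3b, was at 36.6 and 36.3 in shCtl and at 50.8 and 48.2 in shM2-3 (log2 fold change 0.51, standard error 0.0439). CD55, which takes C3 convertases apart, was at 17.7 in both shCtl libraries and at 11.5 in both shM2-3 libraries (log2 fold change -0.56, standard error 0.0614). CD59 blocks the assembly of the membrane attack complex. It had the highest level of all these genes in shCtl, 97.3 and 98.3, and was at 58.6 and 57.9 in shM2-3 (log2 fold change -0.68, standard error 0.0358). The balance between the regulators therefore moved. The RPKM of CD59 was 2.66 and 2.71 times that of CD46 in shCtl and 1.15 and 1.20 times in shM2-3, and that of CD55 was 0.484 and 0.487 times against 0.227 and 0.238 times.

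The secreted regulators were higher. CLU (clusterin), a chaperone that also binds the membrane attack complex, rose from 2.995 and 3.01 to 7.22 and 7.05 (log2 fold change 1.31, standard error 0.101). SERPING1, the C1 inhibitor that acts on C1R and C1S, had 21 and 37 counts in control cells and 85 and 81 after depletion. Its log2 fold change of 1.37 carried the largest standard error of the 23 genes, 0.342 (adjusted p = 0.00263 in edgeR's quasi-likelihood test), and on the log2(RPKM + 1) scale in limma it was 0.68, under the limit. SERPING1 entered the test only through its level in shM2-3. VTN (vitronectin), a further inhibitor of the attack complex, was not read in shCtl (0 counts in each library) and had 12 and 6 counts after depletion, at least 2.68-fold higher against a floor of 3 counts per library. C4BPB was no row of the tables.

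**Figure D2:**
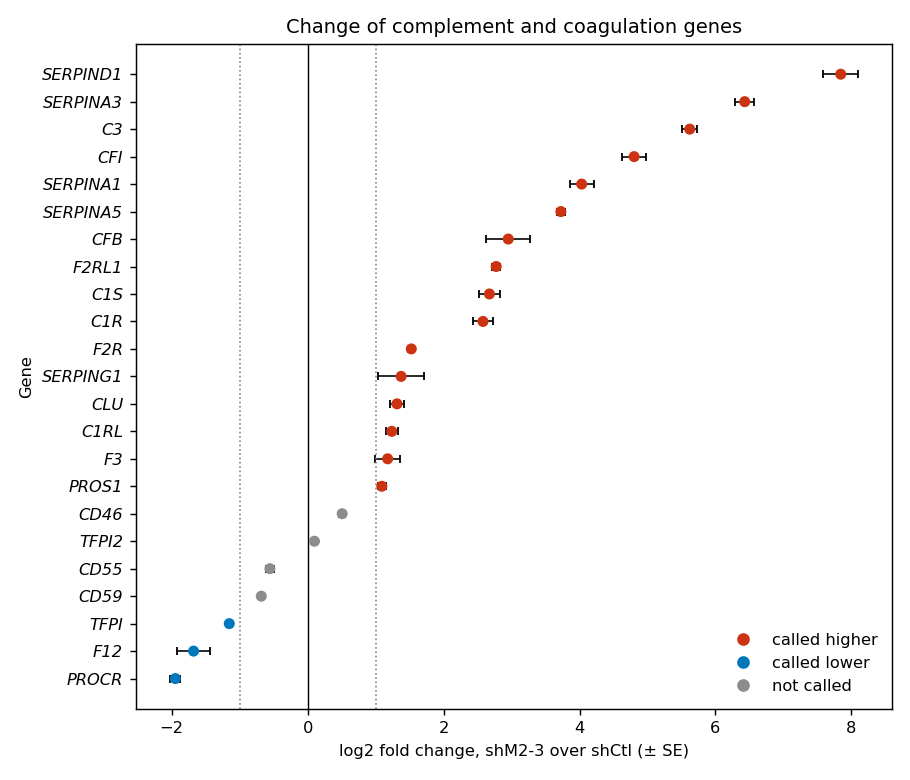
Log2 fold change of shM2-3 over shCtl with its standard error for the 23 tested members, with dotted lines at the fold change limit of 2 in either direction. Standard errors that are not visible are smaller than the points. SERPIND1 and SERPINA3 lay furthest to the right and PROCR furthest to the left, and CD46, CD55, CD59 and TFPI2 lay between the dotted lines.

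Few clotting factors reached the level for testing. Of 12, only F3 and F12 were tested, 6 had an RPKM of 1 or less in every library, and F2, FGA, FGG and KNG1 were no rows of the tables. F3, tissue factor, had an RPKM of 2.05 and 1.52 in shCtl and 3.74 and 3.97 in shM2-3 (log2 fold change 1.18, standard error 0.181, adjusted p = 5.33e-05 in edgeR's quasi-likelihood test). The F3 call was close to the fold change limit, and without shCtl replicate 2 its log2 fold change was 0.97. F12, the factor of the contact pathway, fell by 1.68 on the log2 scale (standard error 0.242), from 169 and 226 counts to 55 and 80. F12 shares 399 exon bases with GRK6 on the other strand, which the libraries do not separate, and GRK6 had a log2 fold change of -0.43. F8 had 53 and 78 counts in control cells and 94 and 121 after depletion, while F5, F10, F13A1 and FGB had 6 counts or fewer in each library. VWF, the carrier of factor VIII made by endothelium, had 6 and 18 counts against 2 and 0.

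The natural anticoagulants moved in both directions. PROCR, the endothelial protein C receptor, fell by 1.95 on the log2 scale (standard error 0.0761), from an RPKM of 64.5 and 69.3 in shCtl to 15.4 and 17.8 in shM2-3, so that 24.8% remained. TFPI, which inhibits the complex of tissue factor and factor VIIa, fell from 92.6 and 90.8 to 39.6 and 39.1, a log2 fold change of -1.15 (standard error 0.0402). These were the largest falls among the genes of high level. TFPI2, a relative of TFPI that acts on plasmin and matrix proteases, stood at 81.1 and 81.8 in shCtl and 83.5 and 83.1 in shM2-3. Its log2 fold change was 0.10 (standard error 0.0409), and its adjusted p of 0.0424 in edgeR's quasi-likelihood test ranged from 0.0342 to 0.407 over the alternatives. TFPI was 1.14 and 1.11 times as high as TFPI2 in shCtl and 0.474 and 0.471 times in shM2-3. Against its target F3, TFPI was 45.2 and 59.6 times as high in shCtl and 10.6 and 9.84 times in shM2-3.

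PROS1 (protein S), a cofactor of activated protein C and of TFPI, rose from 8.53 and 8.76 to 17.6 in both shM2-3 libraries (log2 fold change 1.09, standard error 0.0621). On the log2(RPKM + 1) scale in limma the PROS1 change was 0.95, under the limit. THBD (thrombomodulin), which works beside PROCR, was scarcely read, at 3 and 2 counts in control cells and 9 and 9 after depletion. SERPINC1 (antithrombin) had 4 counts or fewer in each library. The adjusted p of the called anticoagulants ranged from 9.79e-15 for SERPINA5 to 2.46e-09 for PROS1 in edgeR's quasi-likelihood test.

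**Figure D3:**
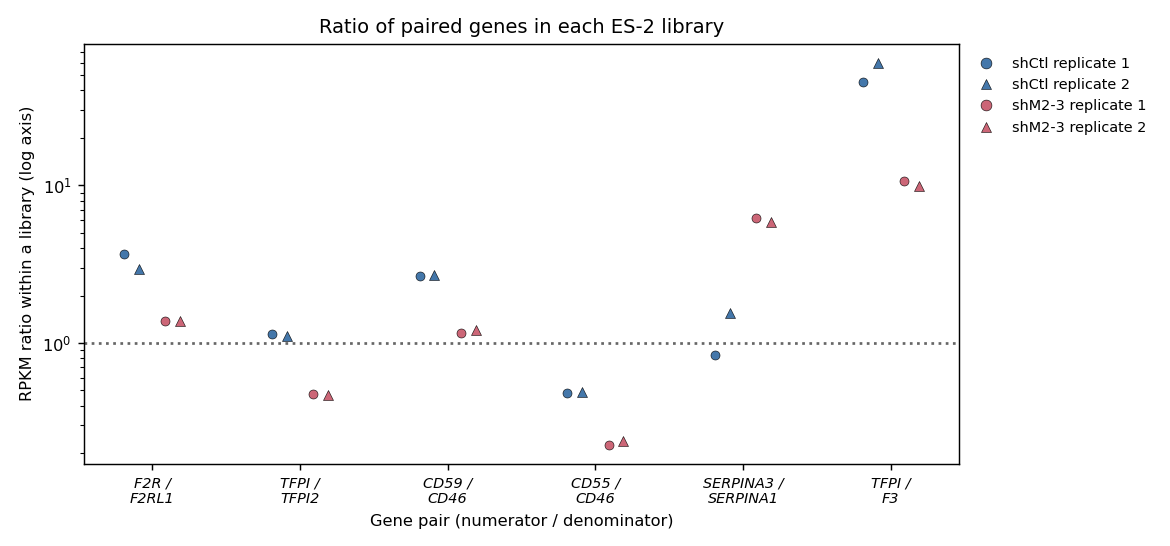
RPKM of 1 gene divided by that of another within each library, on a log axis, with the dotted line at equal levels. The ratio of TFPI to TFPI2 lay above the line in both shCtl libraries and below it in both shM2-3 libraries, and the libraries of the groups did not overlap for any pair shown.

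Serpins are inhibitors that trap the protease they are cut by, and SERPIND1 and SERPINA3 had the largest rises of the 23 genes. SERPIND1 (heparin cofactor II), an inhibitor of thrombin, went from 1 and 4 counts to 676 and 649, an RPKM of 0.0194 and 0.0762 against 10.7 and 11.4. The ratio of its counts was 240-fold, with an exact 95% interval of 103 to 741 for counting error only. Its log2 fold change of 7.84 (standard error 0.255) was 7.20 without shCtl replicate 1 and 9.06 without shCtl replicate 2. This gene entered the test only through its level in shM2-3. SERPIND1 lies within PI4KA, with no shared exon bases, on the other strand, and PI4KA had a mean RPKM of 7.71 in shCtl and 13.5 in shM2-3 (log2 fold change 0.88, not called). SERPINA5 (protein C inhibitor) started at a readable level and rose to one of the highest, from an RPKM of 5.07 and 5.42 to 67.0 and 65.4 (log2 fold change 3.73, standard error 0.0608). SERPINA3 (antichymotrypsin), an acute phase protein, had 14 and 19 counts in control cells and 1601 and 1557 after depletion, and its RPKM went from 0.379 and 0.506 to 35.5 and 38.1 (log2 fold change 6.43, standard error 0.138). SERPINA1 (alpha-1-antitrypsin) went from 0.452 and 0.325 to 5.69 and 6.48 (log2 fold change 4.03, standard error 0.176). All 4 serpins lay more than 10-fold higher in both shM2-3 libraries than in either shCtl library. A2M, an inhibitor that encloses proteases of all classes, had 2 counts in each shCtl library and 20 and 28 in shM2-3, 10.9-fold higher with an exact 95% interval of 3.98 to 41.5 for counting error.

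SERPINA1, SERPINA5 and SERPINA3 lie in a row on chromosome 14 of hg38, between 94376747 and 94624055 in GENCODE v44. Of the 5 genes of that stretch in the tables, these 3 were tested and called higher, although SERPINA1 and SERPINA3 entered the test only through shM2-3. The others, SERPINA9 and SERPINA4, were at an RPKM under 0.03 in every library. SERPINA10, another gene of the A family, had 8 and 5 counts in control cells and 48 and 37 after depletion. The members of the row did not move by equal amounts: SERPINA3 was 0.839 and 1.56 times as high as SERPINA1 in shCtl and 6.24 and 5.88 times in shM2-3. Of the exon bases of SERPINA3, 31.7% are shared with a further annotated gene that is no row of the tables. The promoter of SERPINA5 carried a TEAD match that overlapped a STAT match, 222 and 220 bases before the start, and those of SERPIND1, SERPINA1 and SERPINA3 held none of the motifs. The windows of SERPINA5 and SERPIND1 are given as examples of both kinds.
SERPINA5, chr14:94581176-94581425, plus strand: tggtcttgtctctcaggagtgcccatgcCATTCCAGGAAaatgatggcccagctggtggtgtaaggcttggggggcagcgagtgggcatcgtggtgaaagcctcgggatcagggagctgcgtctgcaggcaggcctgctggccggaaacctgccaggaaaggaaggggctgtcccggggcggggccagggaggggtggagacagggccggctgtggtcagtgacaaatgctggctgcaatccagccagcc
SERPIND1, chr22:20773863-20774112, plus strand: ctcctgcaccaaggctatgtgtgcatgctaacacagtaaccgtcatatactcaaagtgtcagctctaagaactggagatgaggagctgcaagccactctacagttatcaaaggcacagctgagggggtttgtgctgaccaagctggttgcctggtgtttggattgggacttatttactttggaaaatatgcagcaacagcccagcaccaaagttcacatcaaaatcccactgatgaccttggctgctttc

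The receptors that thrombin and related proteases open were among the most abundant of these genes and rose further. F2R (PAR1), the main thrombin receptor, had an RPKM of 42.5 and 40.0 in shCtl and 113 in both shM2-3 libraries, the highest level of all in shM2-3. Its log2 fold change was 1.52 (standard error 0.0441). F2RL1 (PAR2), which answers to trypsin-like proteases rather than thrombin, rose more, from 11.5 and 13.6 to 81.8 and 81.9 (log2 fold change 2.77, standard error 0.0618). F2R had been 3.69 and 2.95 times as high as F2RL1 in shCtl and was 1.38 times as high in both shM2-3 libraries. F2RL2 (PAR3) was at 0.854 and 0.828 in shCtl and 0.791 and 0.817 in shM2-3, under the limit for testing. These 3 receptor genes are neighbours on chromosome 5, from 76615482 to 76835315. IQGAP2, which spans F2RL2 on the other strand, was called lower, with a log2 fold change of -1.27. F2RL1 had a TEAD match 194 bases before its start.
F2RL1, chr5:76818780-76819029, plus strand: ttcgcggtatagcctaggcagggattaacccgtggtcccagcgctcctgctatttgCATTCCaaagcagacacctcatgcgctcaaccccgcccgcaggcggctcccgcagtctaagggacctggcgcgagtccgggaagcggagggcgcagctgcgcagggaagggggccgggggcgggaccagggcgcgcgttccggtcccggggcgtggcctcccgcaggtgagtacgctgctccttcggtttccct

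The trio C1S, C1R and C1RL, all called higher, lies on chromosome 12 between 6988259 and 7109238. CFB lies beside C2, C4A and C4B in the MHC region of chromosome 6. C2, the counterpart of CFB in the classical pathway, had 19 and 7 counts in control cells and 57 and 32 after depletion. CD55 and CD46, which also lie near each other, on chromosome 1, had log2 fold changes of opposite sign.

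The order of levels changed as well. In shCtl the highest mean RPKM values among the 23 genes were those of CD59 (97.8), TFPI (91.7), TFPI2 (81.4) and PROCR (66.9). In shM2-3 they were those of F2R (113), TFPI2 (83.3), F2RL1 (81.8) and SERPINA5 (66.2), and none of these neighbours overlapped between libraries. SERPINA5 moved from place 10 to place 4. SERPINA3 moved from place 18, where its libraries overlapped those of SERPING1 and CFI, to place 8. Other neighbours overlapped in shCtl too, F12 with C1RL, F3 with C1R, CFI with SERPINA1 and C3 with CFB. Further down, PROS1 and PROCR overlapped in shM2-3, as did SERPIND1 and CFI, C1R and C1RL, and SERPINA1 and C1S.

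The 15 genes that stayed at an RPKM of 1 or less were left out of the test by that limit, which is scaled by length, so that C5, F8 and F2RL2 had as many counts as some tested genes. Of the 15, 6 had 10 counts or fewer in every library. Their highest RPKM was 0.854, that of F2RL2. C4B, A2M, VTN, F5, F8 and THBD lay higher in RPKM in shM2-3 than in shCtl without overlap, and VWF, C5 and F2RL2 lower. The share of all genes without overlap was not counted. When all genes with reads were tested, C4B, A2M, VTN and VWF were the 4 genes added to the calls, with 19 members called higher and 4 lower. In that fit, 1658 of all genes with reads in the tables of 19626 were called higher and 1523 lower. Neither CFD, with 10 and 8 counts in control cells and 11 and 3 after depletion, nor MASP1, with 8 and 14 against 26 and 13, was separated between the groups.

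**Figure D4:**
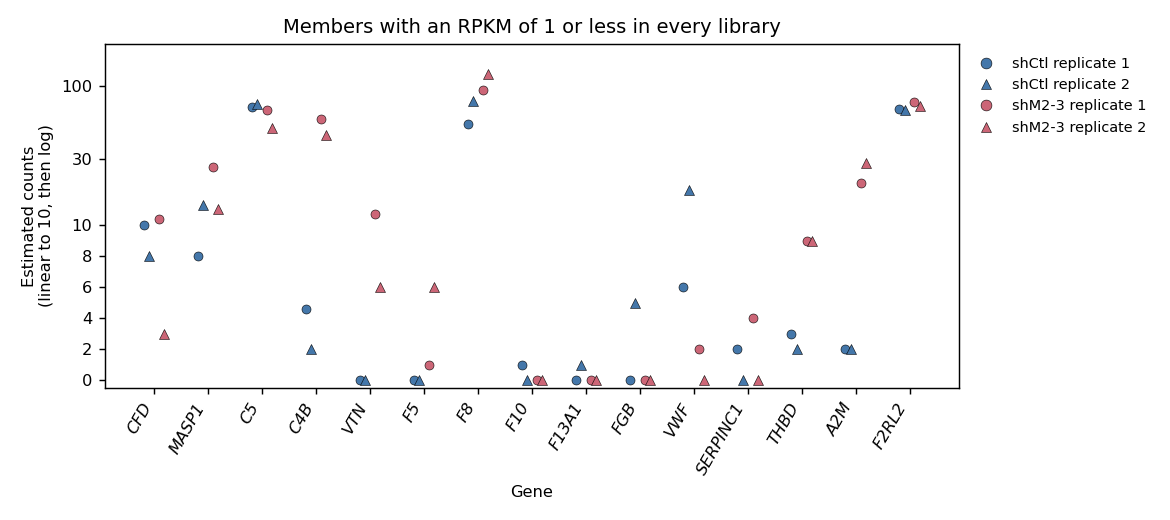
Estimated counts of the 15 members with an RPKM of 1 or less in every library, on an axis that is linear up to 10 and logarithmic above, with 1 symbol per library. C4B and A2M were higher in shM2-3 than in shCtl without overlap, VWF and C5 were lower, and F2RL2 stayed near its shCtl counts. The counts are not scaled by library depth.

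Other genes of the pathways were read from lists written from general knowledge. Of 40 further complement genes, 26 were in the tables and 4 were tested: 1 was called higher and 1 lower. Of all genes tested, 9.24% were called higher and 8.93% lower, and 4 genes are too few to set against these shares. ITGB2, the shared chain of the leukocyte integrins that include complement receptor 3, fell from 32.8 and 32.4 to 1.22 and 1.27, a log2 fold change of -4.65 (standard error 0.0822). C1QBP (log2 fold change -0.88) and COLEC12 (-0.07) were not called. C7, a part of the membrane attack complex, stayed under an RPKM of 1 but went from 0 counts in both shCtl libraries to 135 and 99, at least 35.1-fold higher against a floor of 3 counts per library. C6, C8A and C8B were no rows of the tables, and C8G and C9 had 2 counts or fewer in each library.

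Of 28 further genes of clotting and fibrinolysis, 23 were in the tables and 15 tested, of which 1 was called higher and 2 lower. These are 6.67% and 13.3%, near the 9.24% and 8.93% of all genes tested. SERPINE2 (protease nexin-1), which inhibits thrombin and the plasminogen activators, rose from 15.8 and 17.3 to 175 and 173 (log2 fold change 3.46, standard error 0.0498). PLAUR, the urokinase receptor, fell by 1.13 on the log2 scale, while PLAU (-0.82) and PLAT (0.29) did not reach the limit. GGCX (-0.51) and VKORC1 (-0.69), the enzymes of vitamin K dependent carboxylation, did not reach it either. The adjusted p of ITGB2, SERPINE2 and PLAUR ranged from 3.46e-15 for SERPINE2 to 1.04e-10 for PLAUR in edgeR's quasi-likelihood test.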

How the data were processed

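RNA-seq of ES-2 cells was analysed in 4 libraries, 2 with shCtl and 2 with shM2-3, grouped by their sample titles. Per the study's methods and the submitters' processing notes, read pairs (150 bases each, not strand-specific) were mapped by the authors with HISAT2 2.0.4 against hg38. Reads of mapping quality below 10 or of ambiguous place were removed, and Partek 7.18 assigned the rest to RefSeq genes. The deposited estimated counts are unnormalized and often not whole, and the deposited RPKM values scale them by transcript length and mapped reads.

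After rounding, 12157 genes whose RPKM exceeded 1 in any library entered edgeR 4.0.16 under R 4.3.3 (TMM scaling, quasi-likelihood test, no block). The design had assumed whole counts. Standard errors were derived from the log2 fold change and the F statistic of that test. Intervals are exact (Clopper-Pearson) for counting error only. The test was tried on simulated data first. Alternatives used DESeq2 1.42.0, limma 3.58.1 on log2(RPKM + 0.1) and log2(RPKM + 1), other scalings, filters and limits, a replicate block, and fits without each library.

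The members and the gene lists were chosen with earlier results of these data known. Full values are given for called genes and for those with an RPKM of 10 or more. Of the other pathway genes, those called with an RPKM of 5 or more are named under that rule, except some genes that are not reported here. The pairs compared as ratios, the split by the group through which genes passed the filter, the motifs, and the other genes named were chosen after values had been seen. Sites come from GENCODE v44.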

Additional observations from a re-analysis of the deposited data

How the results depend on the processing

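Of the values of the 23 tested genes under 12 alternatives, 272 kept their direction and stayed called or not called, 4 lost the call and none changed sign. TFPI2, which was not called, had an adjusted p above 0.05 in 10 of the 12. With limma on log2(RPKM + 1), SERPING1, F3 and PROS1 fell under the fold change limit, so that 13 members were called higher and 3 lower, and 596 of all genes were higher. Without shCtl replicate 2, F3 did. With each library left out in turn, 15 to 16 members were called higher and 3 lower. Without a filter, 9 of the other pathway genes were called higher and 4 lower, because more genes were tested. With edgeR's own filter, 8 were higher and 3 lower. Of all genes, 1658 and 1577 were called higher in these fits, and 1523 and 1444 lower. At a fold change limit of 1.5, 2296 genes were higher and 2302 lower, with 9 of the other pathway genes lower. With no such limit these were 4414 and 4430, with 5 members lower and 5 higher and 12 lower of the other pathway genes. No scaling moved the median of all genes by over 0.1 on the log2 scale.

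The replicate numbers were shared between the groups, but same-numbered libraries did not deviate together (correlation of their deviations -0.0287). With the replicate number as a block, 16 members were called higher and 3 lower, and 1123 and 1079 of all genes. With 2 libraries per group the spread is poorly known, and genes with few counts are limited by counting error.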
